A study of Mus musculus with 6 samples.

Results

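The genes of motile cilia, intraflagellar transport and the BBSome were followed through 6 arrays of wild-type (WT) and Dnmt3a-null (KO) mouse neural stem cells. Members were taken by name from the array: axonemal dynein chains (Dnah, Dnaic, Dnali and Dnalc), numbered tektins (Tekt), Ift and Bbs genes, and Foxj1, Mlf1, Spag6, Spag16 and Spag17, with the brightest probe standing for each gene. This gave 38 of 28784 gene names, of which 22 belong to motile cilia, 10 to intraflagellar transport and 6 to the Bardet-Biedl syndrome (BBS) group. Testing required a signal well above background in 1 or both channels of 2 or more arrays. Of the 38 members, 29 met this, among 18062 genes in all.

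Cultures were grown from the walls of the lateral ventricles, in the subventricular zone, of mice at postnatal day 14 to 21, and each array compared WT RNA in one dye with KO RNA in the other. Proliferating cells, on 4 arrays, were kept in serum-free medium with FGF-2 and EGF at 10 ng/ml each. Differentiating cells, on 2 arrays, had been replated with the mitogens for 2 days and then deprived of them for 3 days, which lets neurons and glia form spontaneously. Dyes were swapped, with Cy5 on the KO RNA of proliferating replicates 1 and 3 and of differentiating replicate 2. The genotypes are given as wild type and Dnmt3a-null, and the sources used here do not say how the Dnmt3a allele was inactivated, or in which cells. The labels call the arrays biological replicates without naming the animals, so p-values measure the spread between these cultures. In such mixed cultures, fewer cells of a type and less RNA per cell cannot be told apart.

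Motile cilia are built on an axoneme of microtubules whose dynein arms, made of heavy, intermediate and light chains, produce the beat. Tektins stabilise the microtubule doublets, and the central apparatus, which holds the Spag6, Spag16 and Spag17 proteins, steers the beat. Intraflagellar transport (IFT) carries cargo along the axoneme of motile and primary cilia alike, with the IFT-B complex on the way out and IFT-A on the way back, and the BBSome moves membrane proteins in and out of the cilium. In the ventricle wall, ependymal cells carry many motile cilia under the control of the transcription factor Foxj1, whereas neural stem cells bear a single primary cilium.

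Facts of the whole set of arrays were as follows. Dnmt3a had a lower signal in the KO channel of each array, with a mean log2 KO over WT ratio of -0.96 ± 0.22 (SD, n = 4, limma adjusted p = 0.0219) in proliferating and -1.38 ± 0.14 (SD, n = 2, adjusted p = 0.0154) in differentiating cells. All 7 of 7 neural stem and radial glial markers (such as Nes and Sox2) were above background on every array in both genotypes. Between 52.3% and 59.1% of gene spots were above background per channel. The log2 ratio of Xist, which female cells transcribe, was -1.41 and -2.28 on proliferating replicates 3 and 4 and between -0.07 and 0.08 on the other arrays. Proliferating replicate 4 stood apart for the members. It held the highest signal of the 4 proliferating arrays for 22 of 29 members in WT (75.9%) and 20 in KO (69.0%), against 33.4% and 32.6% of all genes tested.

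Of the members that passed between KO and WT cells, those with a promoter window are Mlf1, Dnahc9 (now Dnah9) and Dnaic1. Their sequences are shown because they are the 3 genes whose ratio in differentiating cells moved furthest from 0 relative to its error. Each run is the 250 bases before the start site from RefSeq (build GRCm38.p6), 5′ to 3′ on the gene's strand. Capitals mark matches to the letters searched on both strands, GTTGCC (core letters of the X-box read by Rfx factors), a longer X-box that begins with them, and TGTTTAC and TAAACA (letters bound by forkhead factors such as Foxj1).
Mlf1, chr3:67373847-67374096, plus strand: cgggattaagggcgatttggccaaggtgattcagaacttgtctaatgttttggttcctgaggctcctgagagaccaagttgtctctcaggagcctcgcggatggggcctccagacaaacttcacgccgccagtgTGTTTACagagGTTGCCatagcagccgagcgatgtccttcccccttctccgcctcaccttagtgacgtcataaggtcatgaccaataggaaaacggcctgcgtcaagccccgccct
Dnahc9, chr11:66168552-66168801, minus strand: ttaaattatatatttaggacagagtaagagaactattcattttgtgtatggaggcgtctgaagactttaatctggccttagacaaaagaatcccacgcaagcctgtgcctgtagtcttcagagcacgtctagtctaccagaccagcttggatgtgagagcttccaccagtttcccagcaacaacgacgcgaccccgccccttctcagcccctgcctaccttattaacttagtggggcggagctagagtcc
Dnaic1, chr4:41569544-41569793, plus strand: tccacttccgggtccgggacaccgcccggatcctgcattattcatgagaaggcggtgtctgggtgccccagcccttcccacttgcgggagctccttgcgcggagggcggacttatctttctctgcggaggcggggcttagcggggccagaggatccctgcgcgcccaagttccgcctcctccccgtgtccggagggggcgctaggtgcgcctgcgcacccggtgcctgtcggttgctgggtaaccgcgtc
The Mlf1 run holds TGTTTAC, which starts 116 bases before the start site, and GTTGCC, which starts 105 bases before it. None of the letters searched lie in the Dnahc9 and Dnaic1 runs. The Dnaic1 run holds 24 CpG dinucleotides, against 13 for Mlf1 and 8 for Dnahc9.

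A larger share of member windows than of all windows held X-box letters. GTTGCC lay in 15 of 36 member windows of 300 bases (41.7%, from 33 genes, 250 bases before and 50 after the start site), against 12.5% of all 32851 windows. The longer X-box lay in 7 member windows (19.4%), against 1.05% of all. TAAACA lay in 9 of the 36 member windows, against 13.4% of all, and TGTTTAC in 2 (5.56%), against 3.65% of all. The reverse strand of TGTTTAC contains TAAACA, and the longer X-box contains GTTGCC, so these counts overlap. Tekt1 and Tekt2 have more than 1 window from alternate starts, and those of Tekt2 share sequence. The median ratio of observed to expected CpG was 0.64 in member windows and 0.38 in all windows. A match describes letters only. No window was at hand for Foxj1, Ift122, Ift80, Ift81 and Dnahc3.

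Between KO and WT proliferating cells none of the members passed the threshold, and between KO and WT differentiating cells 4 motile cilia genes did. Foxj1, Mlf1 and Dnahc9 were higher in KO cells and Dnaic1 was lower. No gene of intraflagellar transport or the BBS group passed in either condition. The counts are 0 of 29 in proliferating cells, where 0.952% of all genes tested passed, and 4 of 29 in differentiating cells, where 3.08% passed, of which 2.18% of all genes were higher and 0.902% lower in KO cells. The fit was limma on the log2 ratios of all 6 arrays with a dye term, and a gene passed at a Benjamini-Hochberg adjusted p under 0.05 over all genes. At an unadjusted p under 0.05 there were 6 members in proliferating cells, among 2885 of 18062 genes, and 7 in differentiating cells, among 3164 of 18062. The median log2 ratio of the 13 motile members tested was 0.43 in differentiating cells, with 9 of 13 above 0, while the medians of the IFT and BBS groups were 0.04 and -0.06. The median over all genes was -0.01. Dnahc11 entered the test only through its signal in differentiating KO cells and Spag6 only through that in differentiating WT cells, so these counts and medians describe the members tested. Leaving out either differentiating array left 0 members past the threshold, leaving out proliferating replicate 1 or 3 left 2, and leaving out proliferating replicate 4 left 3.

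**Figure D1:**
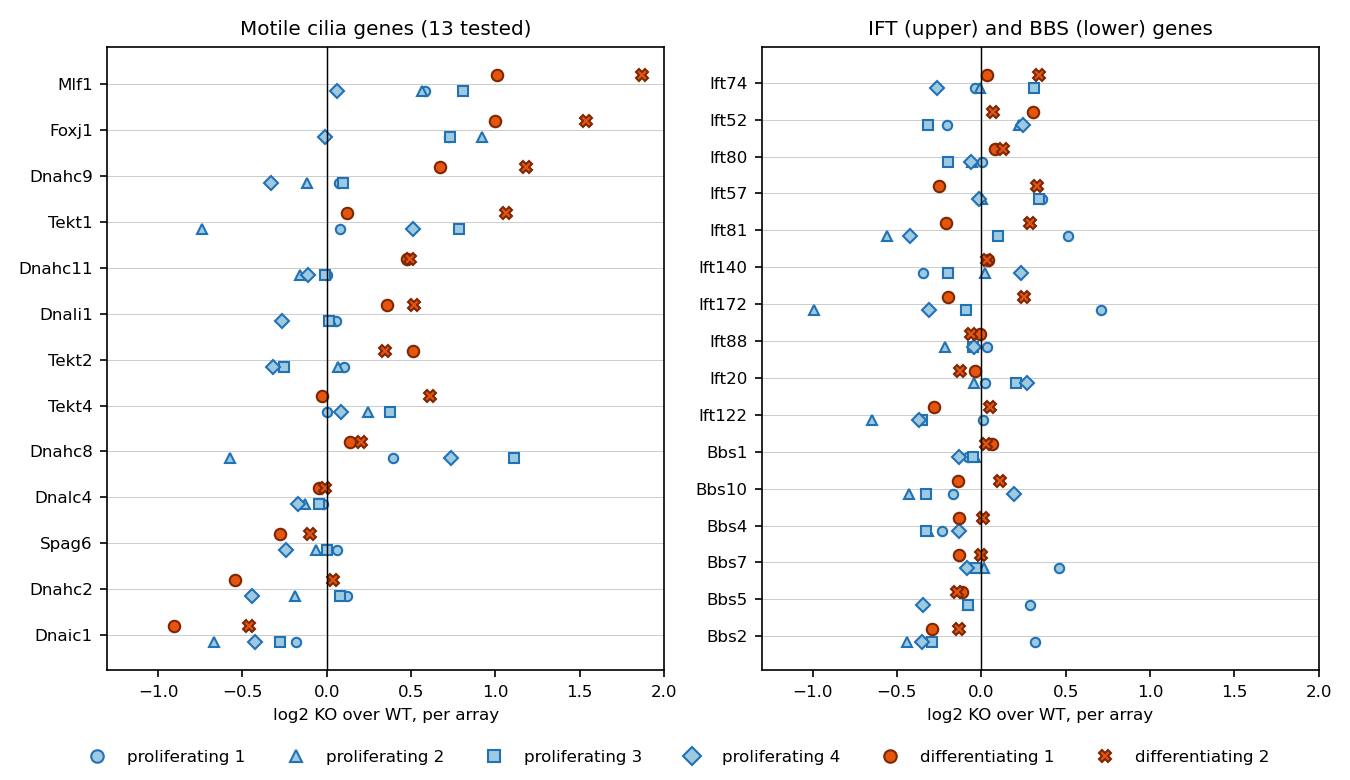
Log2 KO over WT ratio of every tested member on each of the 6 arrays, grouped into motile cilia, intraflagellar transport and BBS genes. On the differentiating arrays Foxj1, Mlf1 and Dnahc9 lie at 0.67 or higher, Dnaic1 lies at -0.46 or lower, and the IFT and BBS members lie between -0.29 and 0.34.

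Foxj1, the forkhead factor that switches on the motile cilia programme, was read by a probe on chromosome 11 (116439945 to 116440004, minus strand, build mm7). Its log2 KO over WT ratios were 0.72, 0.92, 0.73 and -0.01 on proliferating replicates 1 to 4, and 1.00 and 1.54 on differentiating replicates 1 and 2. Every array but proliferating replicate 4 gave a ratio well above 0. On that array the log2 signal was 11.73 in both genotypes, above the 9.64 to 10.33 of WT and 10.56 to 11.06 of KO on the other 3 arrays. In differentiating cells the log2 signal was 9.37 and 9.75 in WT and 10.37 and 11.29 in KO, which did not overlap. Foxj1 rose by a log2 ratio of 1.27 ± 0.22 (SE, n = 2, 2.41-fold, 95% interval 0.72 to 1.81, limma adjusted p = 0.0493) in differentiating KO cells. In proliferating cells the log2 ratio was 0.59 ± 0.41 (SD, n = 4, adjusted p = 0.161), and without replicate 4 it was 0.77 (adjusted p = 0.145), which did not pass either. The call in differentiating cells lay close to the threshold and held under 8 of 17 other settings, with the ratio between 1.14 and 1.40 and the adjusted p between 0.0047 and 0.545.

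Mlf1, which encodes myeloid leukemia factor 1 and is transcribed in ciliated cells, was read on chromosome 3 (67500768 to 67500827, plus strand, build mm7). Its log2 ratios were 0.58, 0.56, 0.81 and 0.06 on proliferating replicates 1 to 4 and 1.01 and 1.87 on the differentiating pair. The WT signal was lower on both differentiating arrays (log2 7.80 and 7.54) than on any proliferating array (8.08 to 8.91), whereas the KO signal was 8.80 and 9.41 against 8.89 to 9.12. Mlf1 rose by a log2 ratio of 1.44 ± 0.17 (SE, n = 2, 2.71-fold, 95% interval 1.02 to 1.85, limma adjusted p = 0.0215) in differentiating KO cells. In proliferating cells its mean ratio was 0.50 ± 0.32 (SD, n = 4, adjusted p = 0.136). The call in differentiating cells held under 15 of 17 other settings.

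**Figure D2:**
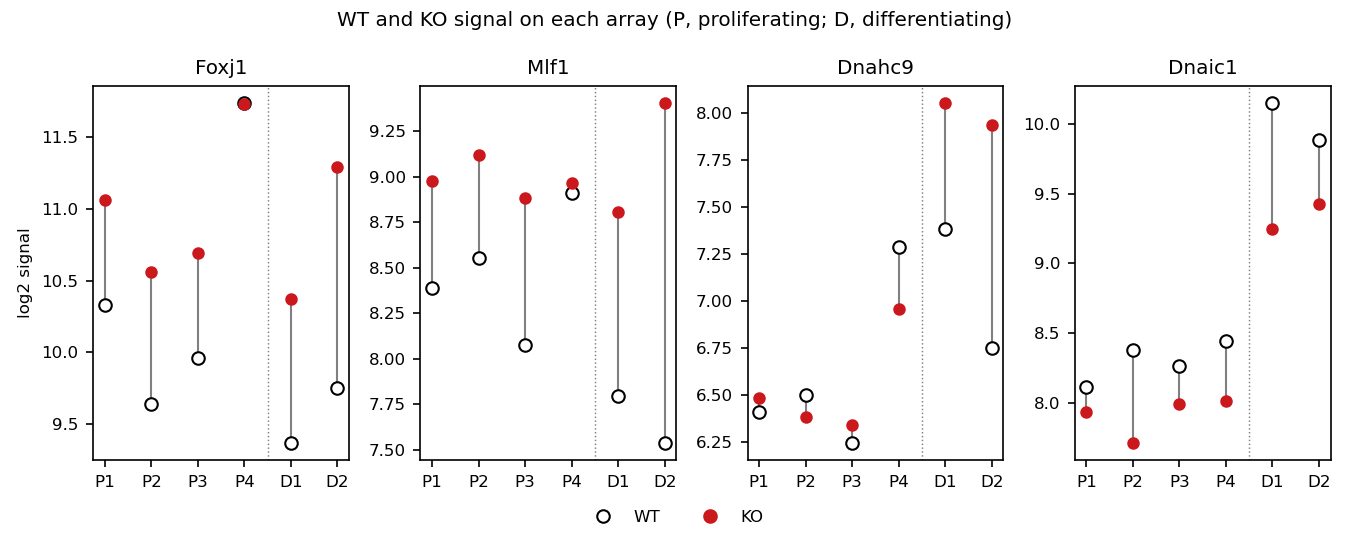
Log2 signal of the members that passed between KO and WT differentiating cells, by array, in WT and KO channels. KO lies above WT on both differentiating arrays for Foxj1, Mlf1 and Dnahc9 and below WT for Dnaic1, and on proliferating replicate 4 the Foxj1 signal is 11.73 in both.

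Among the dynein heavy chains, the motors of the axonemal arms, 4 of 10 were tested (Dnahc2, Dnahc8, Dnahc9 and Dnahc11) and 1 passed. Dnahc9, a heavy chain of the outer arm, gave log2 ratios of 0.07, -0.12, 0.10 and -0.33 on proliferating replicates 1 to 4 and 0.67 and 1.18 on the differentiating arrays. Its mean ratio in proliferating cells was -0.07 ± 0.20 (SD, n = 4). It was above background there on 1 of 4 arrays in each genotype, so this ratio does not show equal levels. The log2 signal in differentiating cells was 7.38 and 6.75 in WT against 8.05 and 7.93 in KO. Dnahc9 rose by a log2 ratio of 0.92 ± 0.10 (SE, n = 2, 1.90-fold, 95% interval 0.67 to 1.18, limma adjusted p = 0.0195). This was the smallest adjusted p of the members tested. With Agilent's processed signals, which carry no added offset, the ratio was 1.60 (adjusted p = 0.0071).

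The Dnahc9 result rests on 1 of 5 probes, and which transcript each probe reads was not checked. The brightest probe lies on chromosome 11 (65913008 to 65913067, build mm7), and the other 4 probes for the gene gave mean log2 ratios of -0.06, 0.06, -0.05 and 0.09 in differentiating cells. Among them, the probe at 66240971 to 66241030 was above background in both channels of both differentiating arrays. The other 3 were not above background on either of them, and 1 of these lies on the plus strand, opposite to the rest. The mean over all 5 probes gave a log2 ratio of 0.19 (limma adjusted p = 0.258).

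**Figure D3:**
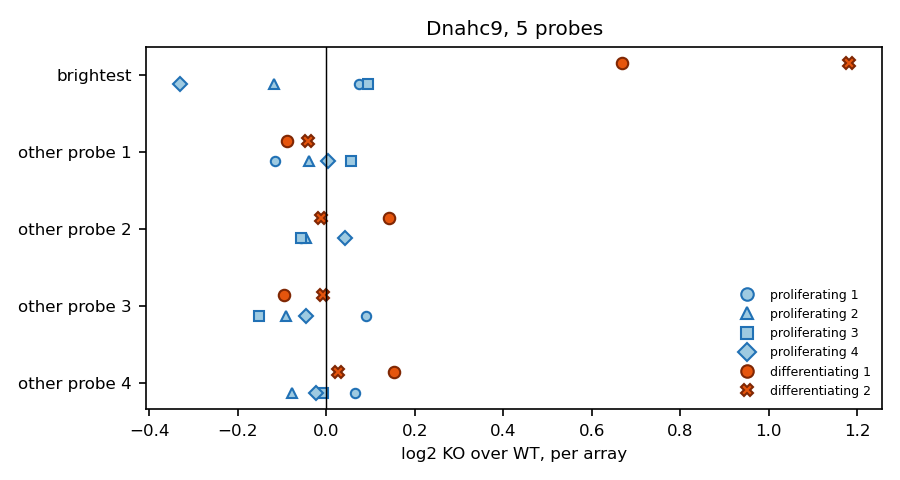
Log2 KO over WT ratio on each array for the 5 Dnahc9 probes. Only the brightest probe gives ratios of 0.67 and 1.18 on the differentiating arrays, while the mean ratios of the other 4 lie between -0.06 and 0.09 there.

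Dnahc11, another outer arm heavy chain, was not above background in WT cells on any array but was above it in KO cells on both differentiating arrays. Its log2 signal there was 6.27 and 6.48 in WT and 6.74 and 6.97 in KO, at least 1.40-fold higher (limma adjusted p = 0.0527), which missed the threshold. It passed under 5 other settings. It entered the test only through the group where it was high. The bound sets the KO mean against the higher of the WT signal and the lowest signal above background on each array. Dnahc2, an inner arm heavy chain, had a log2 ratio of -0.25 (adjusted p = 0.293) in differentiating cells, with -0.54 and 0.04 on the 2 arrays. Dnahc8, of the outer arm, had ratios of 0.39, -0.57, 1.11 and 0.74 in proliferating cells (adjusted p = 0.468), which spread to both sides of 0. Both genotypes were below background for Dnahc8 in differentiating cells.

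Dnaic1, the intermediate chain that anchors the outer arm, was the only member tested that passed as lower in KO than in WT cells. Its log2 ratios were -0.18, -0.67, -0.27 and -0.43 on proliferating replicates 1 to 4 and -0.90 and -0.46 on the differentiating arrays, so KO was below WT on all 6 arrays. The probe lies on chromosome 4 (41776427 to 41776486, build mm7). In differentiating cells the log2 signal was 10.15 and 9.89 in WT and 9.25 and 9.43 in KO, without overlap. Dnaic1 fell by 0.68 ± 0.10 on the log2 scale (SE, n = 2, 1.60-fold lower, 95% interval -0.94 to -0.43, limma adjusted p = 0.0362). In proliferating cells it had the smallest adjusted p of the members (0.0921, mean log2 ratio -0.39 ± 0.21, SD, n = 4) and did not pass. The call in differentiating cells held under 9 of 17 other settings.

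Of the light chains, Dnali1, a light intermediate chain of the inner arms, had log2 ratios of 0.36 and 0.51 on the differentiating arrays (mean 0.44 ± 0.11, SD, n = 2, limma adjusted p = 0.0998). On the proliferating arrays they were 0.05, 0.03, 0.01 and -0.27, all below the differentiating pair. Dnali1 was above background on 1 of these 4 arrays in each genotype, so the proliferating ratios say little of the KO effect there. Dnalc4 (now Dnal4) lay between -0.17 and -0.01 on all arrays (adjusted p = 0.521 in proliferating cells).

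Of the 4 tektins, 3 were tested and none passed between KO and WT cells. Tekt2 had log2 ratios of 0.51 and 0.34 on the differentiating arrays (adjusted p = 0.211), above its proliferating values of 0.10, 0.07, -0.25 and -0.32. Tekt1 varied widely, from -0.74 to 0.78 in proliferating and from 0.12 to 1.06 in differentiating cells (mean 0.59, adjusted p = 0.433). Tekt4 had a log2 ratio of 0.18 before withdrawal (adjusted p = 0.510) and 0.29 after it (adjusted p = 0.437).

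Of the 3 central apparatus genes, only Spag6 (now Spag6l) was tested. Its log2 ratio was -0.06 on the proliferating (adjusted p = 0.730) and -0.19 on the differentiating arrays (adjusted p = 0.385), where the WT signal was above background on both arrays and the KO signal on neither. Spag16 was above background on 1 array and Spag17 on 0, so neither was tested.

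The 9 members that were not tested are Dnahc1, Dnahc3, Dnahc5, Dnahc6, Dnahc10, Dnahc12, Spag16, Spag17 and Tekt3, all of motile cilia. Of these, 4 were above background on 1 array (Dnahc1, Dnahc3, Dnahc12 and Spag16) and 5 on none. Of the 4 probes given for Dnahc12, 2, the brightest among them, lie on chromosome 1 and 2 on chromosome 14, so its identity is uncertain. All 10 IFT members and 4 of 6 BBS members were above background in every channel of every array, against 7 of 22 motile members.

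None of the 10 IFT members passed, and their ratios varied around 0. In the IFT-A complex, Ift122 had ratios of 0.01, -0.65, -0.35 and -0.37 in proliferating cells (fitted log2 ratio -0.34, limma adjusted p = 0.166) and -0.28 and 0.05 in differentiating cells (-0.12, adjusted p = 0.735). Ift140, its partner in IFT-A, had ratios of 0.04 on both differentiating arrays. In the IFT-B complex, Ift57 gave 0.36, 0.00, 0.34 and -0.01 in proliferating cells (mean 0.17 ± 0.21, SD, n = 4, adjusted p = 0.288), and Ift52 gave 0.31 and 0.07 in differentiating cells (mean 0.19, adjusted p = 0.404). The remaining 6 IFT-B members, Ift20, Ift74, Ift80, Ift81, Ift88 and Ift172, had mean ratios between -0.08 and 0.19 in differentiating cells. A missed threshold does not show equal levels. The 95% intervals of the IFT members in differentiating cells reached from -0.61 to 0.66, the widest being that of Ift172, whose bound farthest from 0 is 1.58-fold.

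None of the 6 BBS members passed either. Bbs4, a BBSome subunit, had ratios of -0.23, -0.32, -0.33 and -0.13 in proliferating cells, below 0 on all 4 arrays (fitted log2 ratio -0.25, limma adjusted p = 0.183). In differentiating cells Bbs2, also of the BBSome, had -0.29 and -0.13 (mean -0.21 ± 0.11, SD, n = 2, adjusted p = 0.583). Bbs10, a chaperonin-like protein that assembles the BBSome, had a mean of -0.18 on the proliferating arrays (adjusted p = 0.526) and -0.01 on the differentiating pair (adjusted p = 0.986). The mean ratios of Bbs1, Bbs5 and Bbs7 lay between -0.13 and 0.09 in both conditions. The 95% intervals in differentiating cells reached from -0.61 (Bbs2, 1.53-fold) to 0.42.

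The KO effect was then compared between the conditions, as the differentiating minus the proliferating coefficient. No member passed (0 of 29), where 0.0498% of all genes did (0.0332% higher and 0.0166% lower), or 9 of 18062. At an unadjusted p under 0.05 there were 6 members and 2178 of 18062 genes. The smallest adjusted p was that of Dnahc9 (log2 difference 0.99, limma adjusted p = 0.0886), followed by Dnahc11 (0.55, 0.157), Mlf1 (0.93, 0.185) and Dnali1 (0.48, 0.241). Foxj1 gave 0.68 (0.407) and Dnaic1 -0.30 (0.439). Dnahc9 passed with Agilent's processed signals (1.72, adjusted p = 0.0285), in the authors' value table and with array weights (1.00, adjusted p = 0.0384). Dnahc11 also passed with the processed signals and in the value table, but it was above background only in differentiating KO cells, so no size is given. Both differentiating ratios lay above all 4 proliferating ratios for 8 of 29 members (Foxj1, Mlf1, Dnahc9, Dnahc11, Dnali1, Tekt2, Ift80 and Bbs1), which was so for 9.50% of all genes. Dnahc11 among them entered the test only through its differentiating KO signal. Dnahc9 and Dnali1 were above background on 1 of 4 proliferating arrays in each genotype. Their proliferating ratios, and the differences taken from them, are therefore limited by background. Both differentiating ratios lay below all 4 proliferating ratios for 0 members and for 1585 of 18050 genes. All proliferating arrays shared 1 slide and scan session and both differentiating arrays another, so slide and condition cannot be told apart in this comparison or in that of mitogen withdrawal. KO and WT RNA were compared within arrays.

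Withdrawal of the mitogens was compared within each genotype from the single channels, with limma's separate-channel fit. In WT cells, 2 members rose and 0 fell out of 29, where 14.0% of all genes passed (7.42% higher and 6.59% lower). In KO cells, 6 rose and 1 fell, where 14.4% of all genes passed (7.70% higher and 6.74% lower). All of these were motile cilia genes. Dnahc11, counted among the rises in KO, met the filter only through its differentiating KO signal, and Dnahc8, the member that fell, only through the proliferating arrays. Dnahc2, counted among the rises in both genotypes, and Dnahc9, among those in KO, met it only through the differentiating arrays. Each of these was therefore selected by the condition in which it was high. The median log2 change of the motile members was 0.41 in WT and 0.78 in KO cells, against -0.15 and -0.07 for IFT members and 0.02 in both genotypes for BBS members. The difference between the 2 responses is the comparison of KO effects above, in which no member passed.

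**Figure D4:**
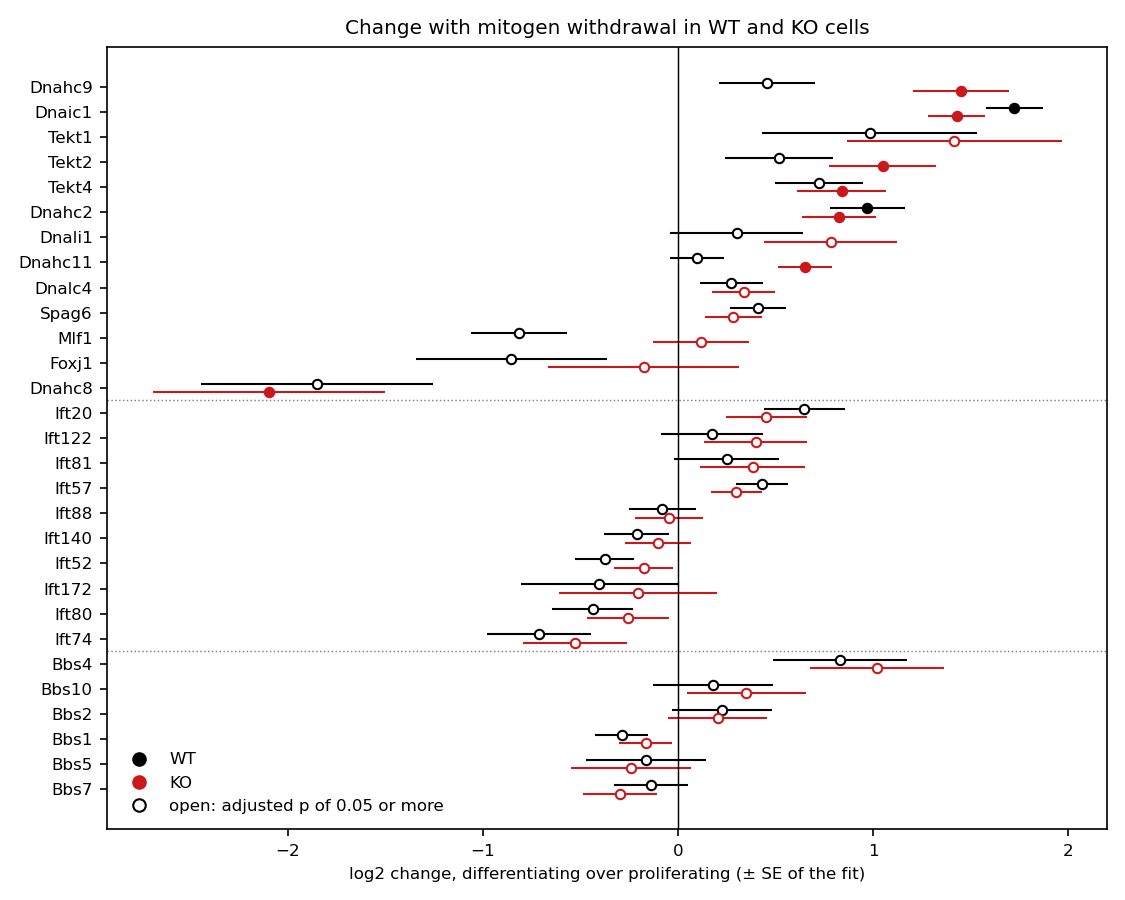
Log2 change after mitogen withdrawal of the members in WT and KO cells, from the separate-channel fit, with bars for the SE of the fit and open points for members that did not pass. Dnaic1 and Dnahc2 rise in both genotypes, and Dnahc8 lies at -1.85 in WT and -2.10 in KO cells.

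Dnaic1 had the largest rise of the members tested in WT cells. Its log2 signal in WT was 8.11, 8.38, 8.26 and 8.44 in proliferating and 10.15 and 9.89 in differentiating cells. In KO it was 7.93, 7.71, 7.99 and 8.01 against 9.25 and 9.43, so neither genotype overlapped between conditions. The rise was 1.72 on the log2 scale in WT (3.30-fold, limma adjusted p = 5.3e-04) and 1.43 in KO (2.69-fold, adjusted p = 0.00106). Both calls held under all 14 other settings.

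Dnahc2 rose in both genotypes as well. In WT its log2 signal went from 6.07, 6.39, 6.16 and 6.72 to 7.21 and 7.40 (log2 change 0.97, 1.96-fold, limma adjusted p = 0.0119). In KO it went from 6.19, 6.21, 6.23 and 6.28, not above background on any array, to 6.67 and 7.44 (at least 1.77-fold, adjusted p = 0.0214). With Agilent's processed signals the WT change was 2.97. In WT, Dnahc2 was above background on 1 of 4 proliferating arrays, so the WT change is set against signals near background. The gene met the filter only through the differentiating arrays, where it was high. The gene's other probe was not above background.

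Dnahc9 and Dnahc11 passed in KO cells, and both met the filter only through differentiating arrays. On the proliferating arrays Dnahc9 was above background on 1 of 4 in each genotype. The Dnahc9 signal in KO was 6.49, 6.38, 6.34 and 6.95 in proliferating and 8.05 and 7.93 in differentiating cells (log2 change 1.45, 2.73-fold, limma adjusted p = 0.00743). In WT it was 6.41, 6.50, 6.24 and 7.29 against 7.38 and 6.75 (0.46, adjusted p = 0.235), where the conditions overlapped. Dnahc11 in KO was 6.40, 6.13, 6.14 and 6.16, below background, against 6.74 and 6.97 (at least 1.57-fold, adjusted p = 0.0159). In WT Dnahc11 was below background in both conditions. With Agilent's processed signals the KO change of Dnahc9 was 3.10, and with the mean over all probes it was 0.25 (adjusted p = 0.179), which did not pass.

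Dnahc8 moved the other way. Its log2 signal in KO cells was 8.17, 8.25, 9.42 and 7.55 in proliferating and 6.15 and 6.35 in differentiating cells, below background in the latter (at least 4.28-fold lower, limma adjusted p = 0.0429). In WT it was 7.77, 8.82, 8.30 and 6.81 against 6.01 and 6.14 (at least 3.61-fold lower, adjusted p = 0.0649), which did not pass although the conditions did not overlap. Its other 2 probes were not above background.

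The tektins Tekt2 and Tekt4 rose in KO cells. Tekt2 went from 7.86, 7.87, 7.72 and 8.41 to 8.91 and 9.12 (log2 change 1.05, 2.07-fold, limma adjusted p = 0.0335), and Tekt4 from 8.69, 8.80, 9.06 and 8.64 to 9.55 and 9.71 (0.84, 1.79-fold, adjusted p = 0.0365). In WT cells neither passed, with Tekt2 at 0.52 (adjusted p = 0.230) and Tekt4 at 0.72 (adjusted p = 0.0601). Tekt1 had a log2 change of 1.41 in KO (adjusted p = 0.109) and 0.98 in WT (adjusted p = 0.253).

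Foxj1 and Mlf1 did not pass on withdrawal in either genotype. Foxj1 had a log2 change of -0.86 in WT (adjusted p = 0.262) and -0.18 in KO (adjusted p = 0.832). Mlf1 had -0.82 in WT (adjusted p = 0.0544) and 0.12 in KO (adjusted p = 0.774). Spag6 had 0.41 in WT cells (at least 1.33-fold, adjusted p = 0.0863), but it met the filter only through differentiating WT cells, where it was high. Of the IFT genes, Ift57 (0.43, adjusted p = 0.0565) and Ift20 (0.65, adjusted p = 0.0657) came closest in WT cells, and of the BBS genes Bbs4 in KO cells (1.02, adjusted p = 0.0733).

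These counts depended on single arrays. Without any one of the other 5 arrays, 1 member passed in WT cells and 1 or 2 in KO cells. Without proliferating replicate 4, 9 members rose and 1 fell in WT cells, where 20.7% of all genes passed (10.6% higher and 10.1% lower), and 10 rose and 1 fell in KO cells, where 25.7% passed (13.3% higher and 12.4% lower). The motile group held 7 of the rises in WT and 8 in KO. Some members passed in WT cells without this replicate but not with it. Of these, Tekt1 (1.13), Bbs4 (1.11), Tekt2 (0.75), Ift57 (0.46), Dnahc9, Dnali1 and Spag6 rose and Dnahc8 fell. The filter stayed that of all 6 arrays. Spag6 met it only through differentiating WT cells, Dnahc11 only through differentiating KO cells and Dnahc8 only through the proliferating arrays, so no size is given for them. Dnahc9 and Dnali1 were above background on 1 of 4 proliferating arrays in each genotype and met the filter only through the differentiating arrays. Their highest proliferating WT signals lay on replicate 4 (log2 7.29 and 7.59), against at most 6.50 and 6.32 on the other arrays. This fit leaves that replicate out, so their changes are set against signals near background and no size is given.

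Other genes of the cilium were read from 7 lists outside the members, with 109 genes tested. In proliferating cells 0 passed between KO and WT, where 0.952% of all genes did. In differentiating cells 6 were higher and 0 lower in KO, where 2.18% of all genes were higher and 0.902% lower. All 6 came from the list of other axonemal and motile cilia genes, of which 36 of 59 were tested and 29 of 36 had a ratio above 0, with a median of 0.20 against -0.01 over all genes. Drc1, a subunit of the nexin-dynein regulatory complex, had log2 ratios of 1.08 and 1.38 (mean 1.23, limma adjusted p = 0.0313). Mns1, a protein within the axonemal microtubules, had 0.95 and 1.47 (1.21, adjusted p = 0.0333). Meig1, needed to build sperm flagella, had 0.62 and 1.24 (0.93, adjusted p = 0.0258). Iqcg, a further subunit of the nexin-dynein regulatory complex, had 0.55 and 0.95 (0.75, adjusted p = 0.0330). Cfap52 had 0.59 and 0.63 (0.61, adjusted p = 0.0334), and Nme5, a radial spoke protein, 0.36 and 0.68 (0.52, adjusted p = 0.0494). All 6 were above WT on both arrays.

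The other 6 lists held no gene that passed between KO and WT cells in either condition. This is to be read against the 0.952% of all genes that passed in proliferating and 3.08% in differentiating cells. The lists are IFT genes under other names (11 tested), ciliary motors (10), BBSome-related genes (9), the transition zone (16), transcription regulators of ciliogenesis (12) and multiciliation and centriole amplification (15).

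Markers of other cell types also differed between KO and WT differentiating cells. In differentiating cells the summed signal of the 10 ependymal markers on the array was 14269 to 19509 in WT and 27251 to 34303 in KO. Such a sum weighs bright genes most. Of the 9 tested, 8 had ratios above 0 and 1 below (median 0.64). Foxj1 passed as higher, and Cd24a, the 1 below 0, passed as lower (log2 ratio -1.07, limma adjusted p = 0.0448). In proliferating cells the sum was 14288 to 21992 in WT and 15047 to 25540 in KO. Without Foxj1 the differentiating sums were 13406 to 18847 and 24742 to 32980, and without S100b too, a gene shared with the astroglial list, 9920 to 13741 and 10078 to 12810, which overlap. E030011K20Rik of that list was not above background in any group.

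The astroglial list (6 of 6 above background on all arrays) summed to 26042 to 32974 in WT and 61593 to 92967 in KO differentiating cells, with Aqp4 higher at 2.91 (adjusted p = 0.0077). In proliferating cells this sum was 11481 to 34895 in WT and 35225 to 57055 in KO. Of the 6 astroglial genes, 5 had ratios above 0 in differentiating cells and 1 below (Slc1a2, mean -0.34), and 1 passed. The oligodendroglial list (8 of 9 above background on both arrays in WT and 9 in KO) summed to 35676 to 44733 and 106154 to 107798, with Sox10 at 2.19 (adjusted p = 0.0170) and Mag at 3.37 (adjusted p = 0.0342). Of its 9 genes, 6 had ratios above 0 and 3 below, with Olig2 lowest at -0.66 and -0.75, and the proliferating sums were 38894 to 72466 in WT and 50744 to 90693 in KO. The neuronal list (7 genes) summed to 20310 to 22553 in WT and 8165 to 9320 in KO. All 7 had ratios below 0, and 5 of 7 passed as lower in KO. Of 7 choroid plexus markers, Ttr and Kl were not above background in any group, and Folr1 was higher in KO at 1.44 (adjusted p = 0.0133), with the list's sum at 711 to 748 in WT and 960 to 1149 in KO. Of the 5 choroid plexus genes tested, 3 had ratios above 0 and 2 below (median 0.03), and Clic6 and Aqp1 were also not above background in differentiating KO cells. None of 5 microglial markers was tested, and Cx3cr1 and Aif1 were not above background in any group. The lists' part in the members' results was not tested.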

How the data were processed

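The deposited scanner tables give each spot's intensity in both dyes, with its local background, and were written by Agilent Feature Extraction (version 9.5.1.1, array design 014868, positions on build mm7), per the file headers. The deposited log10 ratios set Cy5 over Cy3, per the file headers. In the authors' value table they are KO over WT log10 ratios with column medians of 0, and any further centring is unknown. The deposited spot flags (well above background, outlier, control) served as filters.

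With limma 3.58.1 in R 4.3.3, mean signals were corrected by normexp (offset 50), which shrinks ratios of dim spots, and normalized by loess within arrays, with control and outlier spots at weight 0 and then left out. Of 41174 probes, 22951 were named through their accession. The brightest probe stood for a gene. Ratios of all 6 arrays were fitted in limma with a coefficient per condition and a dye term (3 residual and 2.56 prior degrees of freedom). Withdrawal changes were fitted in limma on the single channels (lmscFit, Aquantile between arrays, intraspot correlation 0.763, 18050 genes). All adjusted p-values are 2-sided Benjamini-Hochberg values over all genes from these limma fits. The number of arrays limits the precision. The fits were tested on simulated data.

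Members, lists and tests were chosen with earlier results of these data known. Other settings tried were signals, centring, filters, probe choice, the dye term, array weights and left-out arrays, with their effect given in the closing section. Named with values were members that passed in any comparison, Foxj1, Mlf1 and the Spag genes, the member of smallest p per role group between KO and WT, and up to 6 passing genes of each further list. Of the 38 members, 37 matched a current RefSeq symbol.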

Additional observations from a re-analysis of the deposited data

Results flagged for a closer look

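Among the 4 proliferating arrays, the ratios and signals of the 29 tested members were checked for an array far from the other 3 (Dixon's ratio above its 95% critical value), and 7 of 87 checks met this. Chance marks about 1 in 20. Dnali1 accounted for 3 of them, all on replicate 4, with a log2 KO over WT ratio of -0.27 against 0.01 to 0.05 on the other arrays, a WT log2 signal of 7.59 against 6.19 to 6.32 and a KO log2 signal of 7.33 against 6.21 to 6.33. On the same array the WT log2 signal of Spag6 was 6.50, against 6.09 to 6.14. On replicate 1 the KO log2 signal of Dnahc11 was 6.40, against 6.13 to 6.16, and the WT log2 signal of Ift140 was 10.79, against 10.55 to 10.59. On replicate 2 the WT log2 signal of Ift52 was 9.98, against 10.26 to 10.29.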

How the results depend on the processing

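The number of members that passed between KO and WT cells stayed at 0 in proliferating cells under all 17 alternatives. In differentiating cells (4 members) it was 1 with median centring (Mlf1), between 0 and 3 when 1 array was left out, and 3 to 6 under the other settings. For the difference of KO effects (0) it was 2 with Agilent's processed signals, 2 in the authors' value table and 1 with array weights, and 0 whichever array was left out. For withdrawal in WT cells (2) it was 5 with processed signals, 1 with the stricter filter (above background on at least 4 arrays), 5 without the dye term, 4 after quantile normalization, 1 to 10 with 1 array left out and 7 in a plain limma fit with a replicate block, which also left out proliferating replicates 3 and 4. In KO cells (7) it was 3 with the stricter filter, 4 with the mean over all probes, 1 to 11 with 1 array left out and 7 in that same replicate block fit, of which Bbs4, Tekt1 and Dnali1 are not among the main 7. With a replicate block in the ratio fits, the proliferating, differentiating and difference counts were 0, 4 and 0. The numbers were not taken to pair the arrays, since deviations of same-numbered arrays correlated at -0.37 and -0.29 over 18062 genes and these arrays have opposite dye orientation.

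Of the other Dnahc9 probes, the one above background on both differentiating arrays gave the opposite sign there (-0.065, limma adjusted p = 0.810). Another, above background only on proliferating arrays, gave 0.065 in differentiating cells. On withdrawal in KO cells the opposite sign (-0.30) was read by a probe above background on some arrays. Probes above background on no array say nothing of direction. For Dnahc9 in differentiating cells they read -0.052 and 0.090. On withdrawal, those of opposite sign read -0.047 in WT and -0.031 in KO for Dnahc2, and 0.16 in KO for Dnahc8. Under the other settings the members that passed, and Foxj1, kept their sign in the 14 results recomputed. Over all genes, counts ranged from 0 to 278 in proliferating cells (172), from 285 to 1784 in differentiating cells (557; 0 to 534 with 1 array left out) and from 0 to 128 for the difference (9), and on withdrawal from 161 to 3738 in WT (2528) and from 132 to 4635 in KO cells (2607). The cause was not tested. A fit without 1 differentiating array assumes that the lone array varies like the others. A block for slide and scan could not be fitted beside condition, so it was not run. Signal over background limited the motile group most, with 9 of 22 members not tested.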

Other observations

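Genes of the cilium outside the members also changed with mitogen withdrawal. They are given as values and were chosen after their values were seen. Of 15 multiciliation and centriole genes tested, 0 rose in either genotype, 5 fell in WT and 4 in KO cells (limma separate-channel fit), where 7.42% of all genes rose and 6.59% fell in WT and 7.70% and 6.74% in KO. Plk4, the kinase that starts centriole duplication, is counted among the falls in WT (adjusted p = 0.0304) and KO (adjusted p = 0.0191). It was below background on the differentiating arrays in both genotypes and met the filter only through the proliferating arrays, so no size is given. Gmnn, of the list of transcription regulators of ciliogenesis, encodes geminin, an inhibitor of DNA relicensing. It had a log2 change of -3.29 in WT (adjusted p = 0.0018) and -2.76 in KO (adjusted p = 0.0041). Among 36 other axonemal genes tested, 3 rose and 2 fell in WT and 6 rose and 1 fell in KO cells. Meig1, needed to build sperm flagella, rose by 1.98 in WT (adjusted p = 0.0287) and by 3.14 in KO (adjusted p = 0.0058). Of the 4 proliferating arrays, Meig1 was above background on 2 in WT and 1 in KO. Mns1 had -1.88 in WT (adjusted p = 0.0026). Over all 7 lists, 7 of 109 genes tested rose and 15 fell in WT, and 11 rose and 11 fell in KO cells, to be read against the same shares of all genes.

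In 8 genes the current RefSeq symbol, but not the name in the files, has the form used to choose the members (Dnal1, Dnai2, Ift22, Ift27, Ift43, Ift46, Bbs9 and Bbs12). Of these, 7 were tested and 0 passed in any of the 5 comparisons (limma), with 4 at an unadjusted p under 0.05 between KO and WT proliferating cells and 0 in differentiating cells. Ependymal sums without Foxj1 and S100b, given in the text, were an alternative chosen after seeing the data.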
